A study of Homo sapiens with 2 samples.

Results

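The cytochrome P450 family was examined in RNA sequencing of human 786-O renal carcinoma cells and of a SETD2 knockout line made from them. Its members were the genes whose symbol is CYP followed by a number, 1 letter and a number, which gave 55 of 23375 genes. 786-O cells are an established line of clear cell origin that lacks functional VHL, so both lines share that loss. The wild-type library came from the 786-O RCC cell line, and the knockout library came from its SETD2 ZFN KO derivative, in which a zinc finger nuclease, a designed DNA-cutting protein, had disrupted SETD2. Both lines were grown in RPMI medium with serum and received no agent other than medium. SETD2 is the enzyme that trimethylates lysine 36 of histone H3 along transcribed genes, and the design asked how expression differs between these isogenic lines. The labels name 1 library of each line and do not say whether the knockout line is 1 clone. With 1 library per line there is no replicate check, so each difference compares these libraries rather than the conditions.

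P450 enzymes hold a heme group and insert 1 oxygen atom into their substrates, with electrons passed to them by a reductase. Some members clear drugs and other foreign compounds and are best known from liver, while others make or break down steroids, bile acids, vitamin D, retinoic acid, cholesterol and fatty acid signals. In the kidney the family is known for the activation of vitamin D and for the oxidation of arachidonic acid, whose products act on vessels and tubules.

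Fragments assigned to genes numbered 62304084 in the wild-type and 50670012 in the knockout library. SETD2 had 4908 fragments in the wild-type and 1404 in the knockout library, with RPKM values of 6.79 and 2.39, a ratio of knockout to wild type of 0.334 (0.314 to 0.354). Ratios are taken after scaling for library size, and the range after each is its exact 95% counting interval, which covers counting error only. RPKM is the authors' value per gene length and library total. Of 11 genes listed for renal carcinoma identity, 10 were measured, with a median log2 ratio of -0.47. Only LHX1 and CDH6 had a ratio above 1. EPAS1, CA12, PAX2, KRT8 and KRT18 had ratios of 0.553, 0.673, 0.806, 0.836 and 0.770. The renal lineage marker PAX8 had 15208 and 8728 fragments, a ratio of 0.669, and the mesenchymal filament gene VIM had 317608 and 177180, a ratio of 0.651. The kidney developmental factor LHX1 had 990 and 2238, a ratio of 2.64, and the cadherin CDH6 had 10820 and 18487, a ratio of 1.99. NDUFA4L2, a hypoxia target, had 27 and 4, a ratio of 0.173. CA9, a hypoxia target often used to mark clear cell carcinoma, had 1 and 0 fragments, so it was near absent from both libraries.

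At least 1 fragment was counted for 35 members in the wild-type library and for 43 in the knockout library. Of the 55 members, 33 were seen in both, 10 only in the knockout library, 2 only in the wild-type library and 10 in neither. Of the 12 seen in 1 library only, CYP2A6 and CYP2S1 were beyond 2-fold by the rule given below, and the other 10 had at most 6 fragments. The background over all genes was 5.27% seen only in the knockout library and 3.13% seen only in the wild-type library, against 18.2% and 3.64% of the members. A count of 0 allows a level of up to 3 fragments, equal to 0.0494 CPM for the wild-type library and 0.0577 CPM for the knockout one, CPM being counts per 1e6 fragments after scaling. The 10 members with no fragment were CYP1A2, CYP2A13, CYP4A11, CYP4B1, CYP4F8, CYP4F22, CYP11B1, CYP11B2, CYP17A1 and CYP26A1. They include the last enzymes of cortisol and aldosterone synthesis (CYP11B1 and CYP11B2), the entry enzyme to androgens (CYP17A1) and the liver caffeine oxidase CYP1A2.

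Few members were abundant. An RPKM of at least 1 was reached by 6 members in the wild-type library and by 9 in the knockout library. With CPM per kilobase from the scaled fragments in place of RPKM, 9 members reached 1 in each library, so the 2 numbers do not differ on that scale. CYP1B1 and CYP51A1 together made up 78.5% of the summed RPKM of all members in the wild-type library and 54.8% in the knockout library. The order by RPKM in the wild-type library was CYP1B1 at 30.1, CYP51A1 at 20.2, then CYP2R1 at 2.88, CYP20A1 at 2.80, CYP4V2 at 1.84 and CYP27B1 at 1.59. In the knockout library it was CYP51A1 at 15, CYP1B1 at 14.2, CYP4V2 at 5.11, CYP2R1 at 3.37, CYP2U1 at 2.99, CYP4F11 at 2.82, CYP20A1 at 2.79, CYP7B1 at 1.58 and CYP27B1 at 1.16. CYP4V2, CYP2U1 and CYP4F11 thus stood at or above the level of CYP20A1 in the knockout library and below it in the wild-type library.

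**Figure D1:**
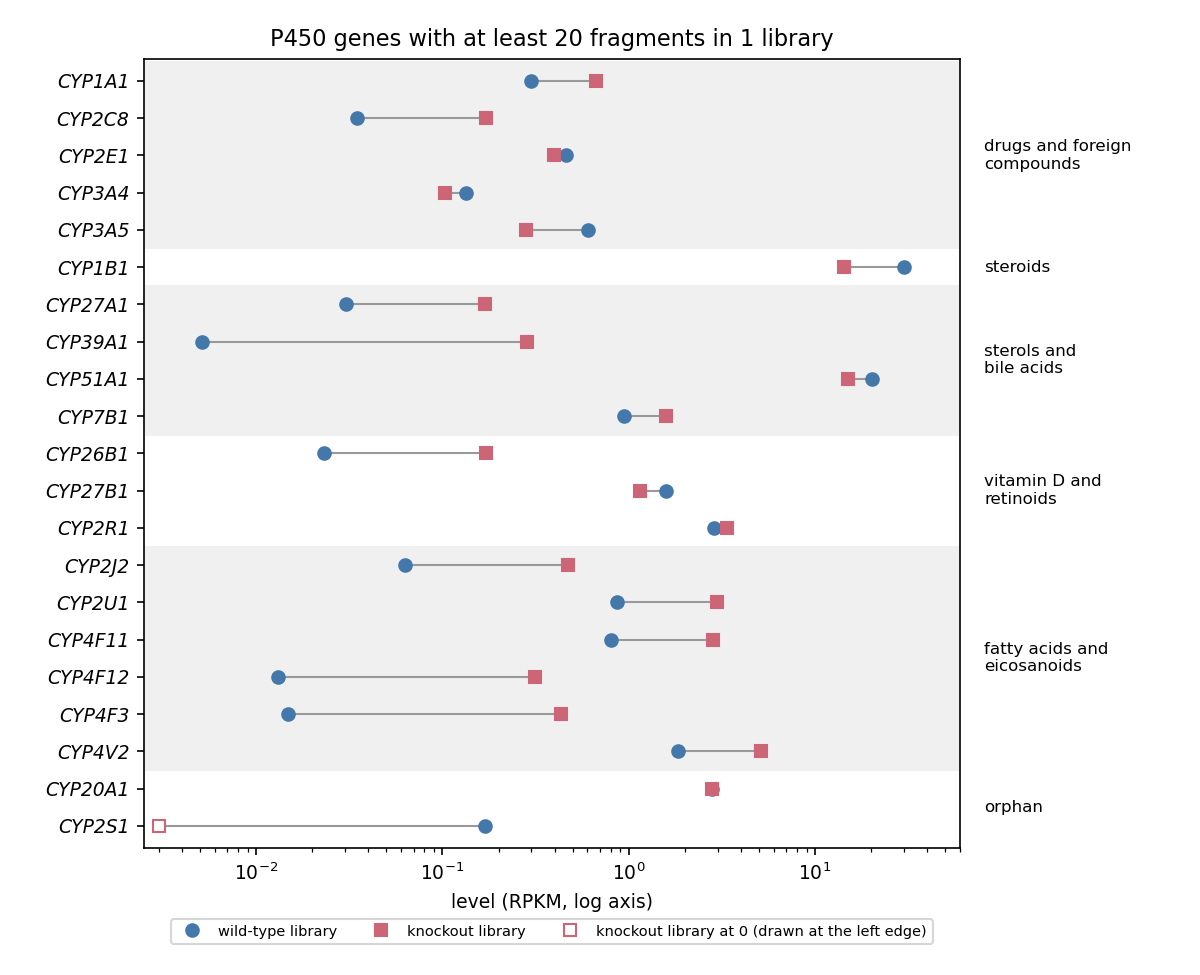
RPKM on a log axis (horizontal) for each P450 gene with at least 20 fragments in 1 library (vertical, grouped by role), with 1 point per library. CYP1B1 and CYP51A1 lie far to the right in both libraries, and each fatty acid and eicosanoid gene drawn has its knockout point to the right of the wild-type point.

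Genes are called higher or lower in the knockout library where the whole counting interval was beyond 2-fold, among genes with at least 10 reads (5 fragments) over both libraries. Of 34 members with that depth, 10 were higher (29.4%) and 2 were lower (5.88%), against a background of 5.75% higher and 3.37% lower among 16894 genes. Beyond 1.5-fold, 13 members were higher and 3 were lower, against 10.4% and 9.17% of all genes. Members that reached the depth only through the library in which they were high had to differ, so these counts describe the measured members and not the family as a whole. Of the 21 members with at least 20 fragments in 1 library, 9 were higher and 2 lower, against 5.88% and 3.81% of 14399 genes of that depth. The median log2 ratio was 1.5 over the 34 members and 0.02 over all genes of that depth. With members at 0 in one library set to the bound that 3 fragments allow, the members' median was 1.09.

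**Figure D2:**
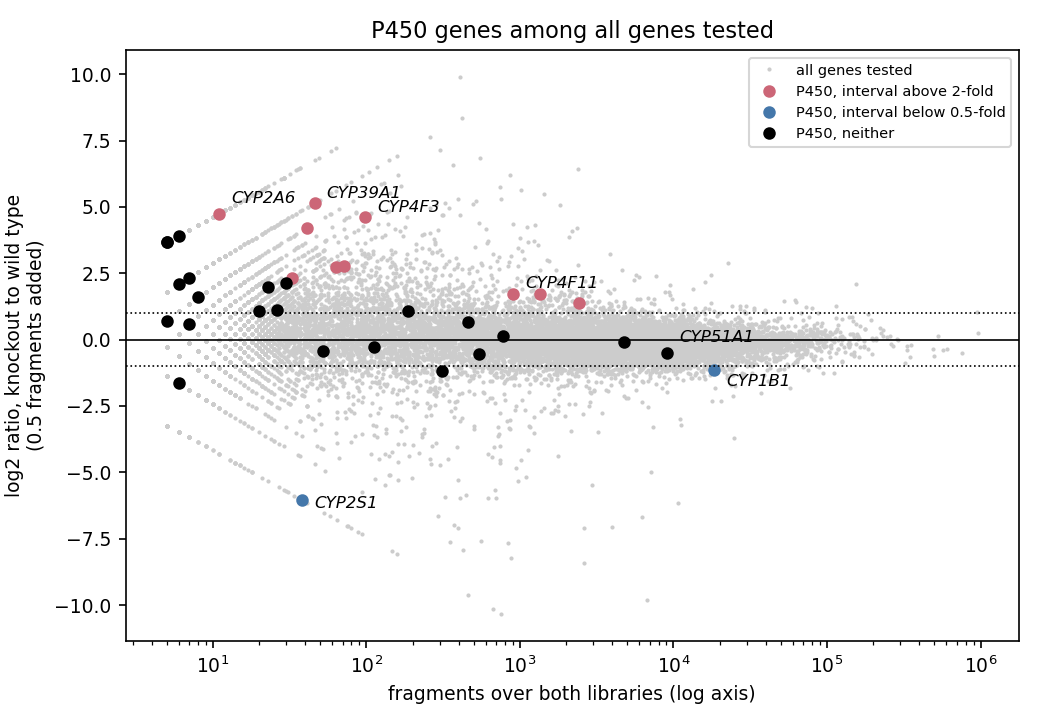
Each point is 1 gene, placed by its fragments over both libraries (horizontal, log axis) and by its log2 ratio of knockout to wild type (vertical), with all tested genes in grey and the P450 genes in colour. The members with few fragments lie mostly above 0, while CYP1B1 and CYP51A1, the most abundant, lie below it.

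The group of fatty acid and eicosanoid oxidases held most of the higher members. Of 12 members, 7 had the depth to be compared, 6 were higher and 0 were lower, with a median log2 ratio of 2.10. That median is the value of CYP4F2, which had only 1 and 5 fragments and was not beyond 2-fold. The best covered genes of the group, CYP4V2, CYP2U1 and CYP4F11, had log2 ratios of 1.40, 1.71 and 1.73, and the other higher genes lay above the median. The counts of this and the following groups and lists stand against 5.75% higher and 3.37% lower among all genes tested. CYP4V2, an omega-hydroxylase of fatty acids known from an inherited retinal dystrophy, had 742 fragments in the wild-type and 1674 in the knockout library. Its RPKM was 1.84 and 5.11, a ratio of 2.63 (2.41 to 2.87). CYP2U1, which hydroxylates long-chain fatty acids and is mutated in a hereditary spastic paraplegia, had 353 and 989 fragments. Its RPKM was 0.866 and 2.99, a ratio of 3.27 (2.89 to 3.70). Both genes were among the better covered members and both lie on chromosome 4, CYP2U1 at 108852717 to 108874613 and CYP4V2 at 187112674 to 187134617 of hg19. CYP2J2, the main arachidonic acid epoxygenase of the heart, had 10 and 61 fragments, with RPKM values of 0.0628 and 0.472. The ratio of CYP2J2 was 7.11 (3.62 to 15.6), and its level in both libraries stayed well under that of CYP4V2.

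The other 3 higher genes of this group sit in the CYP4F cluster of chromosome 19. CYP4F enzymes hydroxylate the tail of leukotrienes, of arachidonic acid and of vitamins E and K. CYP4F11, at 16023180 to 16045676 of hg19, had 234 wild-type and 667 knockout fragments, RPKM 0.804 and 2.82, and a ratio of 3.32 (2.86 to 3.88). CYP4F3, the leukotriene B4 omega-hydroxylase, lies at 15751707 to 15771570 and had 4 and 94 fragments, RPKM 0.0149 and 0.431. Its ratio was 27.4 (10.4 to 103). CYP4F12 had 2 and 39 fragments, RPKM 0.0131 and 0.314, and a ratio of 22.7 (5.89 to 194). CYP4F11 was thus already measurable in the wild-type library, while CYP4F3 and CYP4F12 were close to 0 there. CYP4F2, a vitamin K oxidase, had 1 and 5 fragments, and CYP4F8 and CYP4F22, the enzyme of skin ceramides, had none in either library. Summed over the cluster, the 6 members had 241 and 805 fragments.

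The cluster also holds genes of other families. Among its neighbours within the same 426 kb, the olfactory receptor gene OR10H1 had 6 and 43 fragments and was higher, with a ratio of 8.36. The non-coding gene UCA1 had 757 and 902 fragments, a ratio of 1.39 that was not beyond 2-fold. A call beyond 2-fold was thus not made at every expressed gene of the interval. Members of the family resemble one another, which can move reads between them. In GENCODE transcripts, 9.30% of the 50-base windows of CYP4F3 also occur in another family transcript, mostly in CYP4F2, against 4.36% for CYP4F12 and 0.868% for CYP4F11.

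**Figure D3:**
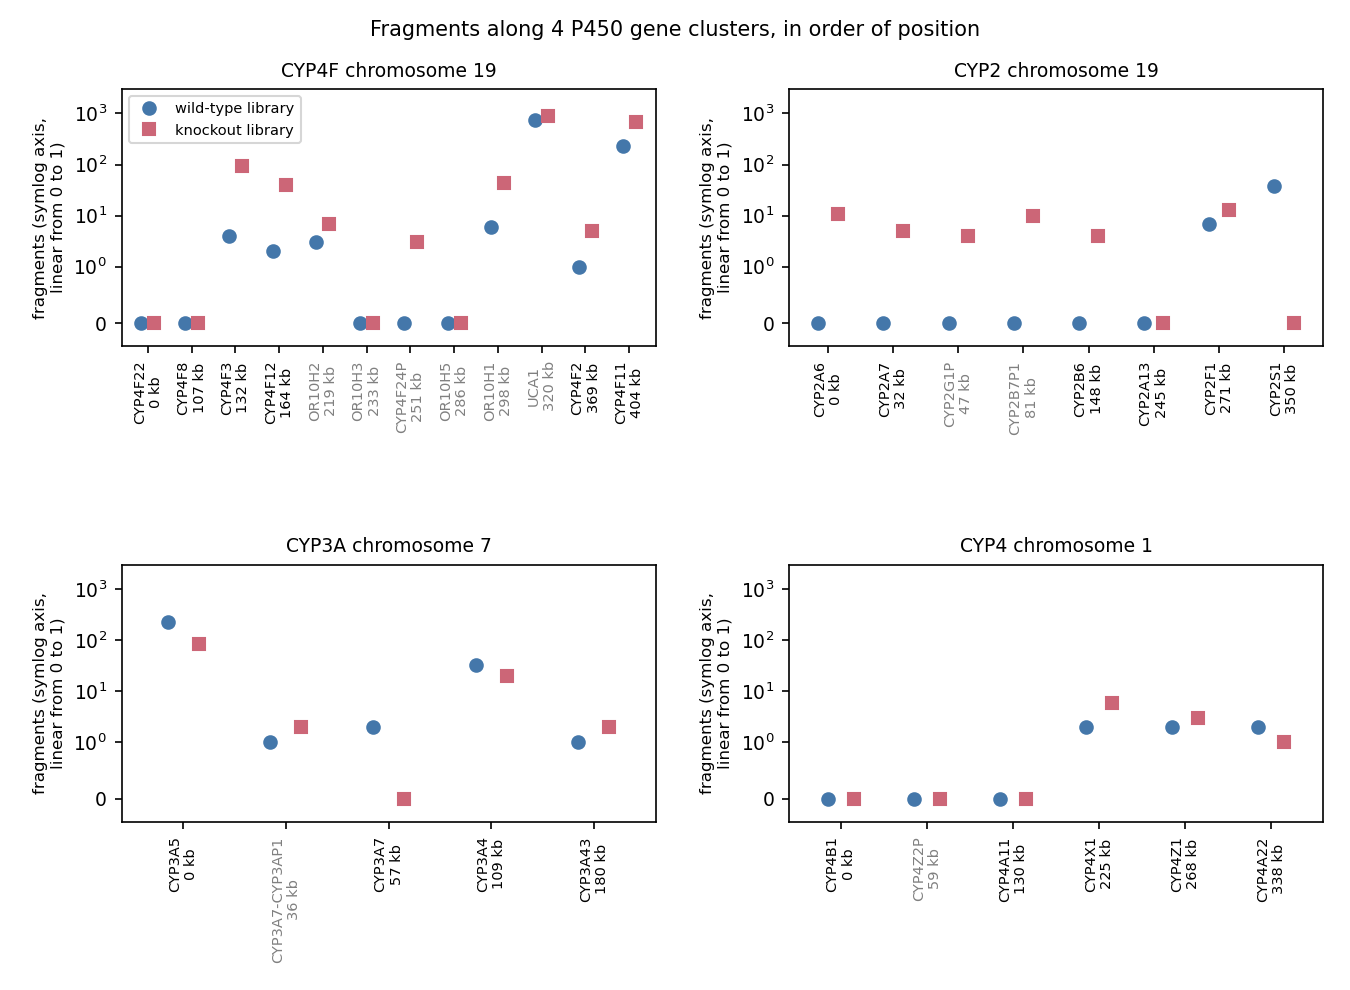
Fragments of each gene in the wild-type and knockout libraries (vertical, log axis that is linear from 0 to 1) in 4 P450 gene clusters, with genes in order of position along the horizontal axis and the distance in kb from the first gene printed under each name (not to scale). In the CYP4F cluster, CYP4F3, CYP4F12 and CYP4F11 have more knockout than wild-type fragments, and the non-coding gene UCA1, at 757 and 902, lies between CYP4F12 and CYP4F11.

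The 250 bases before the start of CYP4F3 and CYP4F11 are shown because these genes lie in 1 cluster, were both higher, and start from different levels. Both sequences are from RefSeq on GRCh38.p14, written 5′ to 3′ on the gene's strand, with each CG dinucleotide in capitals. The CYP4F3 window is chr19:15641062-15641311 on the plus strand, and the CYP4F11 window is chr19:15934868-15935117 on the minus strand.
CYP4F3: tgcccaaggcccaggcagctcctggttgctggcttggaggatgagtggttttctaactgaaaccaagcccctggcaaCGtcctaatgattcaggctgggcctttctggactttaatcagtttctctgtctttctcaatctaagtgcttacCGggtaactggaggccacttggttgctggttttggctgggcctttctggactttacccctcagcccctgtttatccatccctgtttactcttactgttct
CYP4F11: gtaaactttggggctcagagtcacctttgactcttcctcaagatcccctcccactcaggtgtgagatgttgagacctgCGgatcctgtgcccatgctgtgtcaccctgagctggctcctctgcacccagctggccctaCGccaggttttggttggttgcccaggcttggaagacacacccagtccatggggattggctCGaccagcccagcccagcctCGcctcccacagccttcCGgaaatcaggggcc
The CYP4F3 window holds 2 CG dinucleotides and the CYP4F11 window holds 5, against a median of 11 over 35116 RefSeq promoters. Over the 8 higher members with at least 20 fragments and a window, the median was 20, so these 2 windows do not stand for the higher members. Aligned to each other, the CYP4F3 and CYP4F11 windows were 43.6% identical.

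Ratios of the enzymes of sterols and bile acids lay on both sides of 1. CYP51A1, the lanosterol demethylase of cholesterol synthesis and the most conserved P450, had 5688 and 3438 fragments. Its RPKM was 20.2 and 15, a ratio of 0.705 (0.676 to 0.736). CYP51A1 lies at 91741463 to 91764059 of chromosome 7, where the median log2 ratio of the 50 nearest expressed genes was -0.77. Divided by those neighbours, the ratio of CYP51A1 was 1.2, so its direction turned. Pseudogenes of CYP51A1 share sequence with it, and 17.8% of its 50-base windows occur in another family transcript. Of 15 genes listed for the steps from squalene to cholesterol, 13 were found and measured, and 0 were higher and 0 lower beyond 2-fold. EBP, the sterol isomerase, had 6030 and 3254, a ratio of 0.629 (0.603 to 0.657).

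The bile acid branch held the highest ratio among the members counted in both libraries. CYP39A1, the 24-hydroxycholesterol 7-alpha-hydroxylase, had 1 wild-type and 45 knockout fragments, RPKM 0.00513 and 0.285. The ratio was 52.5 with a wide interval (8.95 to 2119) that rests on the single wild-type fragment. CYP27A1, the mitochondrial sterol 27-hydroxylase, had 6 and 27 fragments, RPKM 0.0305 and 0.169, and a ratio of 5.25 (2.12 to 15.5). That call was lost with a 99% interval and after division by the neighbouring genes, where the ratio was 4.63. CYP7B1, the oxysterol 7-alpha-hydroxylase, had 194 and 263 fragments, RPKM 0.945 and 1.58, and a ratio of 1.58 (1.31 to 1.91), which did not pass 2-fold. Both of the classic liver enzymes were near 0, CYP7A1 (the rate-limiting step of bile acid synthesis) at 0 and 6 fragments and CYP8B1 (the 12-alpha-hydroxylase) at 0 and 2. CYP46A1, the brain cholesterol 24-hydroxylase, had 5 and 18 fragments and was beyond 1.5-fold only. In all, 6 of 7 sterol and bile acid members had the depth to be compared and 2 were higher.

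The promoter of CYP39A1 is shown as the contrast to CYP4F3, since both genes were near 0 in the wild-type library. Its window is chr6:46652819-46653068 on the minus strand of GRCh38.p14, with each CG in capitals.
CYP39A1: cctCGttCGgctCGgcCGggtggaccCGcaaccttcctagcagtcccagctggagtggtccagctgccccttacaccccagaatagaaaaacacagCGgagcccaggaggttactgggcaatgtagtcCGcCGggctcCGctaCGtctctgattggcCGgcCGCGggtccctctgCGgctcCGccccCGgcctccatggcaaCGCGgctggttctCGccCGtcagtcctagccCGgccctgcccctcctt
It holds 21 CG dinucleotides, so the CYP39A1 and CYP4F3 windows differ in CG number. Whether promoter sequence relates to the ratios was not tested.

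Of the 9 other genes listed for bile acids and oxysterols with enough reads, 1 was higher. BAAT, which joins bile acids to glycine or taurine, had 31 and 206 fragments, a ratio of 7.75 (5.30 to 11.7). The most abundant of that list, HSD17B4 and SCP2, which shorten the side chain in peroxisomes, had ratios of 1.21 and 0.977. NR1H4, the bile acid receptor FXR, belongs to the nuclear receptor list and had 17 and 99 fragments, a ratio of 6.79 (4.03 to 12.1). RXRA, the shared partner of many such receptors, had 6539 and 11709 fragments, a ratio of 2.09 (2.03 to 2.15). RXRA and NR1H4 were the only 2 of 12 measured receptors on that list beyond 2-fold, both higher. The oxysterol receptor NR1H2, the highest of them by RPKM in the wild-type library at 16.6, had 2979 and 2221 fragments, a ratio of 0.870 (0.823 to 0.919).

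Among steroid enzymes, reads were almost all from CYP1B1. CYP1B1 hydroxylates estradiol and also polycyclic aromatic hydrocarbons, and it is the P450 best known from tumours. It had 13313 wild-type and 5106 knockout fragments, RPKM 30.1 and 14.2. The ratio was 0.447 (0.433 to 0.462), lower beyond 2-fold. CYP1B1 lies at 38294746 to 38303323 of chromosome 2 on hg19. Divided by its 50 nearest expressed genes, its ratio was 0.489 and no longer wholly beyond 2-fold. None of its 50-base windows occur in another family transcript. CYP1B1-AS1, a gene named as its antisense partner, had 129 and 60 fragments and lies apart from it at 38358247 to 38408993 in the deposited table.

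The gland enzymes of steroid synthesis were at or near 0. CYP11A1, which cuts the cholesterol side chain, had 5 and 1 fragments, CYP21A2, the 21-hydroxylase, had 1 and 1, and CYP19A1, the aromatase, had 0 and 3. Among 13 partner genes of steroid synthesis, 9 were measured, 1 was higher and 1 lower. HSD17B3, which reduces androstenedione to testosterone, had 1 and 44 fragments, a ratio of 51.3 (8.74 to 2073). HSD11B1, which regenerates cortisol, had 15 and 0 fragments and was at least 4.29-fold lower when 3 fragments are allowed to the knockout library, while the interval over both libraries starts at 3.08-fold lower. The most abundant partners, the cholesterol-binding TSPO and the 5-alpha-reductase SRD5A1, had ratios of 0.763 (0.740 to 0.787) and 0.825 (0.787 to 0.866). Of 7 markers of steroid-producing cells, 5 had no fragment in the wild-type and 4 none in the knockout library, and their summed level was 0.330 and 0.730 CPM.

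Vitamin D and retinoid enzymes gave 1 change beyond 2-fold among 4 measured of 7 members. CYP27B1, which makes the active hormone calcitriol in kidney tubules, had 340 and 200 fragments. Its RPKM was 1.59 and 1.16, a ratio of 0.686 (0.573 to 0.819), and 0.919 when divided by its neighbours. CYP2R1, the vitamin D 25-hydroxylase, had 399 and 379 fragments, RPKM 2.88 and 3.37, a ratio of 1.11 (0.960 to 1.28) whose interval includes 1. CYP24A1, the enzyme that inactivates calcitriol, was at the floor with 3 and 4 fragments. The vitamin D receptor VDR had 364 and 277 fragments, a ratio of 0.888 (0.756 to 1.04). On the vitamin D list 5 of 9 genes were measured and 1, RXRA, was higher, though not after division by its neighbours. Its highest genes by wild-type RPKM, PDIA3, a membrane calcitriol-binding protein, and DHCR7, which uses up the vitamin D precursor, had ratios of 0.772 and 0.811.

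CYP26B1 was the higher member of this group. It breaks down retinoic acid and is known as a target of the retinoic acid receptors. CYP26B1 had 9 and 54 fragments, RPKM 0.0232 and 0.171, and a ratio of 7.0 (3.43 to 16.1). Its relative CYP26A1 had none in either library and CYP26C1 had 0 and 1. On the list of retinoic acid handling, which holds enzymes, binding proteins and receptors, 3 of 12 measured genes were higher and 0 were lower. ALDH1A1, which oxidises retinal to retinoic acid, had 18121 and 43554 fragments, a ratio of 2.80 (2.76 to 2.85). RDH10, which makes retinal, had 1756 and 4327, a ratio of 2.87 (2.72 to 3.04), and DHRS3, which reduces retinal back to retinol, had 131 and 458, a ratio of 4.08 (3.35 to 4.99). RDH11, another retinal reductase, had 3163 and 2921, a ratio of 1.08 (1.02 to 1.13). The higher genes therefore include enzymes of both directions of the pathway.

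**Figure D4:**
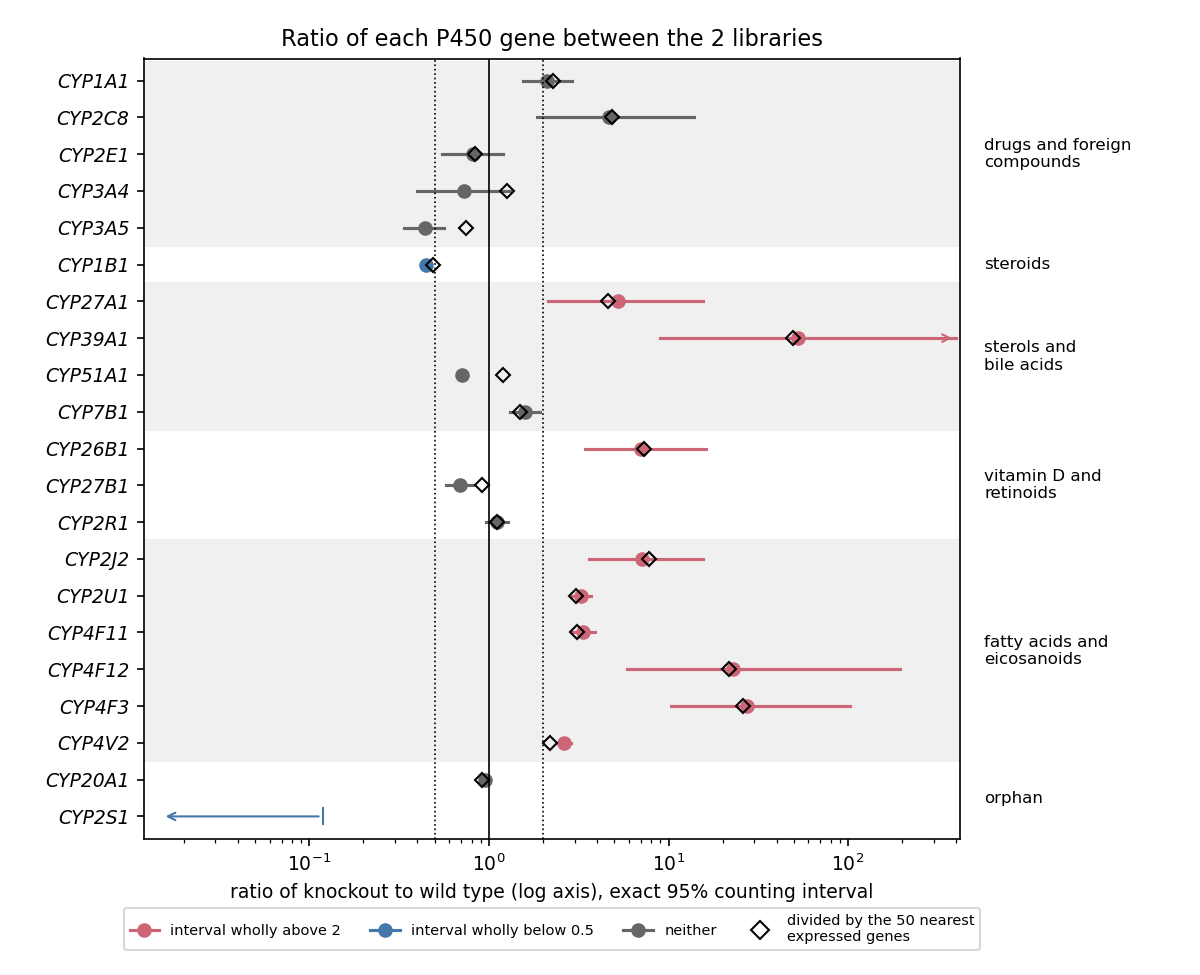
Ratio of knockout to wild type (horizontal, log axis) with its exact 95% counting interval for each P450 gene with at least 20 fragments in 1 library, grouped by role, with dotted lines at 2-fold and an open diamond for the ratio divided by the 50 nearest expressed genes. The diamond of CYP51A1 is at 1.2 and that of CYP3A5 at 0.745, both right of their filled points, while those of the fatty acid group stay above 2.

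The drug-metabolising P450s were of low level throughout. Of 15 members, 9 were measured, and only CYP2A6 was beyond 2-fold. CYP2A6, the nicotine oxidase, had 0 wild-type and 11 knockout fragments and was at least 4.28-fold higher when 3 fragments are allowed to the wild-type library, while the interval over both libraries starts at a ratio of 2.93. With 39.8% of its 50-base windows found in another family transcript, mostly CYP2A7, its reads are uncertain. CYP1A1, which oxidises polycyclic aromatic hydrocarbons and is the classic target of the aryl hydrocarbon receptor AHR, had 67 and 121 fragments. Its RPKM was 0.300 and 0.667, a ratio of 2.11 (1.55 to 2.88), beyond 1.5-fold only. CYP2C8, an arachidonic acid epoxygenase that also clears paclitaxel, had 6 and 24 fragments, a ratio of 4.67 (1.86 to 14). The ethanol-inducible CYP2E1 had 66 and 46 fragments, a ratio of 0.813 (0.545 to 1.2), so its difference was within counting error.

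CYP1A1 and CYP1B1 are both known AHR targets, and their ratios lay on opposite sides of 1. AHR itself had 6054 and 3503 fragments, a ratio of 0.675 (0.647 to 0.704), and 0.838 when divided by its neighbours. Its partner ARNT had 2949 and 1724, a ratio of 0.682 (0.642 to 0.724), and 0.816 when divided by its neighbours. AHRR, the repressor that AHR induces, had 102 and 213 fragments, a ratio of 2.44 (1.91 to 3.12) that was not wholly beyond 2-fold. On the AHR list 10 of 11 genes were measured, 0 were higher and 1 was lower. That gene was ARNT2, a second partner of such receptors, with 3000 and 1044 fragments and a ratio of 0.406 (0.378 to 0.436). The chaperone genes HSP90AB1 and PTGES3, which hold AHR in the cytoplasm, were the most abundant of the list, with ratios of 1.07 (1.06 to 1.08) and 0.701 (0.688 to 0.714).

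The promoter of CYP1A1 is shown because AHR and ARNT bind the core motif GCGTG. Its 250 bases are chr15:74725529-74725778 on the minus strand of GRCh38.p14, with the motif in capitals.
CYP1A1: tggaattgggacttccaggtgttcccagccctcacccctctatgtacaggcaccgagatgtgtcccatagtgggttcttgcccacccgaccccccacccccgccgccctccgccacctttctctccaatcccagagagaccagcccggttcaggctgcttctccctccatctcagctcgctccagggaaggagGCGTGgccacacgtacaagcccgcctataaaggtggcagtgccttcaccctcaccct
The window holds 1 match, counted on both strands. A match describes letters and is no evidence of binding. Of 39 members with a RefSeq promoter window, 23.1% held GCGTG, against 32.2% of all promoters.

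Among the CYP3A genes of chromosome 7, only CYP3A5 was lower beyond 1.5-fold. CYP3A5, the form common in kidney, had 226 and 85 fragments, RPKM 0.607 and 0.281. Its ratio was 0.439 (0.338 to 0.565), beyond 1.5-fold but not wholly beyond 2-fold. CYP3A4, the main drug oxidase of the liver, had 32 and 20 fragments, a ratio of 0.729 (0.395 to 1.31). CYP3A7, the fetal form, had 2 and 0 fragments, and CYP3A43 had 1 and 2. The 50 expressed genes nearest to CYP3A5 had a median log2 ratio of -0.76. Divided by them, the ratio was 0.745 for CYP3A5 and, with its own neighbours, 1.26 for CYP3A4. How far the lower level of the region enters the CYP3A values was not tested.

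Other members of this role had at most 17 fragments in a library. CYP2D6, an oxidase of many psychiatric drugs, had 9 and 17 fragments, with 40.7% of its 50-base windows shared, mostly with the pseudogene CYP2D7. CYP2F1, a lung enzyme, had 7 and 13. In the CYP2C cluster of chromosome 10, which also holds CYP2C8, both CYP2C18 and CYP2C19 had 0 and 4. CYP2B6 had 0 and 4. None of these small counts was beyond 2-fold by the interval.

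CYP2S1 went the other way from its cluster neighbour CYP2A6. It is an epithelial P450 whose substrates are not settled, and it was placed among the orphan enzymes. CYP2S1, at 41699115 to 41713444 of chromosome 19 on hg19, had 38 wild-type fragments and none in the knockout library. Allowing 3 fragments to the knockout library, it was at least 10.9-fold lower, a bound that takes the wild-type count as exact. The interval that allows for counting error in both libraries starts at 8.41-fold lower. Within the same 364 kb, the pseudogene CYP2B7P1 had 0 and 10 fragments, CYP2A7 had 0 and 5 and CYP2F1 had 7 and 13. The 6 members of the cluster summed to 45 and 33 fragments.

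The promoter of CYP2S1 is shown because this gene alone among members with at least 20 fragments had none in 1 library. Its window is chr19:41192969-41193218 on the plus strand of GRCh38.p14, with each CG in capitals.
CYP2S1: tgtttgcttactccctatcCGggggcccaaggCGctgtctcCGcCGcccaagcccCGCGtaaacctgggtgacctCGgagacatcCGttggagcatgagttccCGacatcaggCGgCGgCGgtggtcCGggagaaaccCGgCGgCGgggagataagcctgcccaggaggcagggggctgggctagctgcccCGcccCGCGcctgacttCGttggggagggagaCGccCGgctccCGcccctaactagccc
It holds 23 CG dinucleotides, close to the 21 of CYP39A1, which differed between the libraries in the opposite direction.

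Of 7 orphan members 6 were measured, 0 were higher and CYP2S1 was lower. CYP20A1, a conserved P450 without a settled substrate, was the most evenly expressed of the abundant members. It had 2623 and 2126 fragments, RPKM 2.80 and 2.79, and a ratio of 0.945 (0.892 to 1.0). CYP2W1, a fetal gut enzyme found again in some colon tumours, had 0 and 5 fragments, CYP4X1 had 2 and 6 and CYP4Z1 had 2 and 3.

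A promoter comparison over the family used the 39 members with a RefSeq window. Members with at least 20 fragments in 1 library had a median of 19 CG dinucleotides over 17 windows, and members under 20 fragments a median of 2 over 22 windows. The motif TATAAA, as in the TATA box but counted at any position of the window, was found in 35.9% of member windows and 10.7% of all promoters. It was present in 10 of 11 windows of drug-metabolising members. The nuclear receptor motif AGGTCA was found in 28.2% of member windows and 12.1% of all promoters. All 3 motifs were searched on both strands, none contains another, and the shares describe these windows only.

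Of the enzymes that feed P450s with electrons, 8 of 9 listed were found and measured, 0 were higher and 1 was lower. CYB5A, the cytochrome b5 that assists several P450s, had 400 wild-type and 5 knockout fragments, RPKM 5.41 and 0.0834. The ratio was 0.0146 (0.00471 to 0.0343). POR, the reductase on which all microsomal P450s depend, had 11667 and 5893 fragments, RPKM 54.5 and 33.9, a ratio of 0.589 (0.571 to 0.608). POR lies on chromosome 7, where its nearest expressed genes had a median log2 ratio of -0.534. Divided by those neighbours, the ratio of POR was 0.853. PGRMC1, a heme-binding P450 partner, had 12473 and 13703, a ratio of 1.28 (1.25 to 1.31). CYB5B, the mitochondrial form of cytochrome b5, had 8413 and 7056, a ratio of 0.978 (0.948 to 1.01), so CYB5A was low beside a form that was not. For mitochondrial P450s, the ferredoxin FDX1 had 1378 and 1214 fragments, a ratio of 1.03 (0.95 to 1.11), and its reductase FDXR had 1020 and 1510, a ratio of 1.73 (1.59 to 1.87). Of the 7 mitochondrial members themselves, 4 were measured and CYP27A1 was the 1 beyond 2-fold.

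Of 12 genes of heme synthesis and breakdown, 1 was higher and 0 were lower, a share near that of all genes. The higher gene was HMOX1, which breaks heme down and is induced by oxidative stress, with 2142 and 4095 fragments and a ratio of 2.23 (2.12 to 2.35). ALAS1, the rate-limiting enzyme of heme synthesis, had 3663 and 3114, a ratio of 0.992 (0.945 to 1.04). The highest of the list by wild-type RPKM, UROD of heme synthesis and BLVRA, which reduces biliverdin, had ratios of 1.15 (1.12 to 1.2) and 0.706 (0.665 to 0.749).

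**Figure D5:**
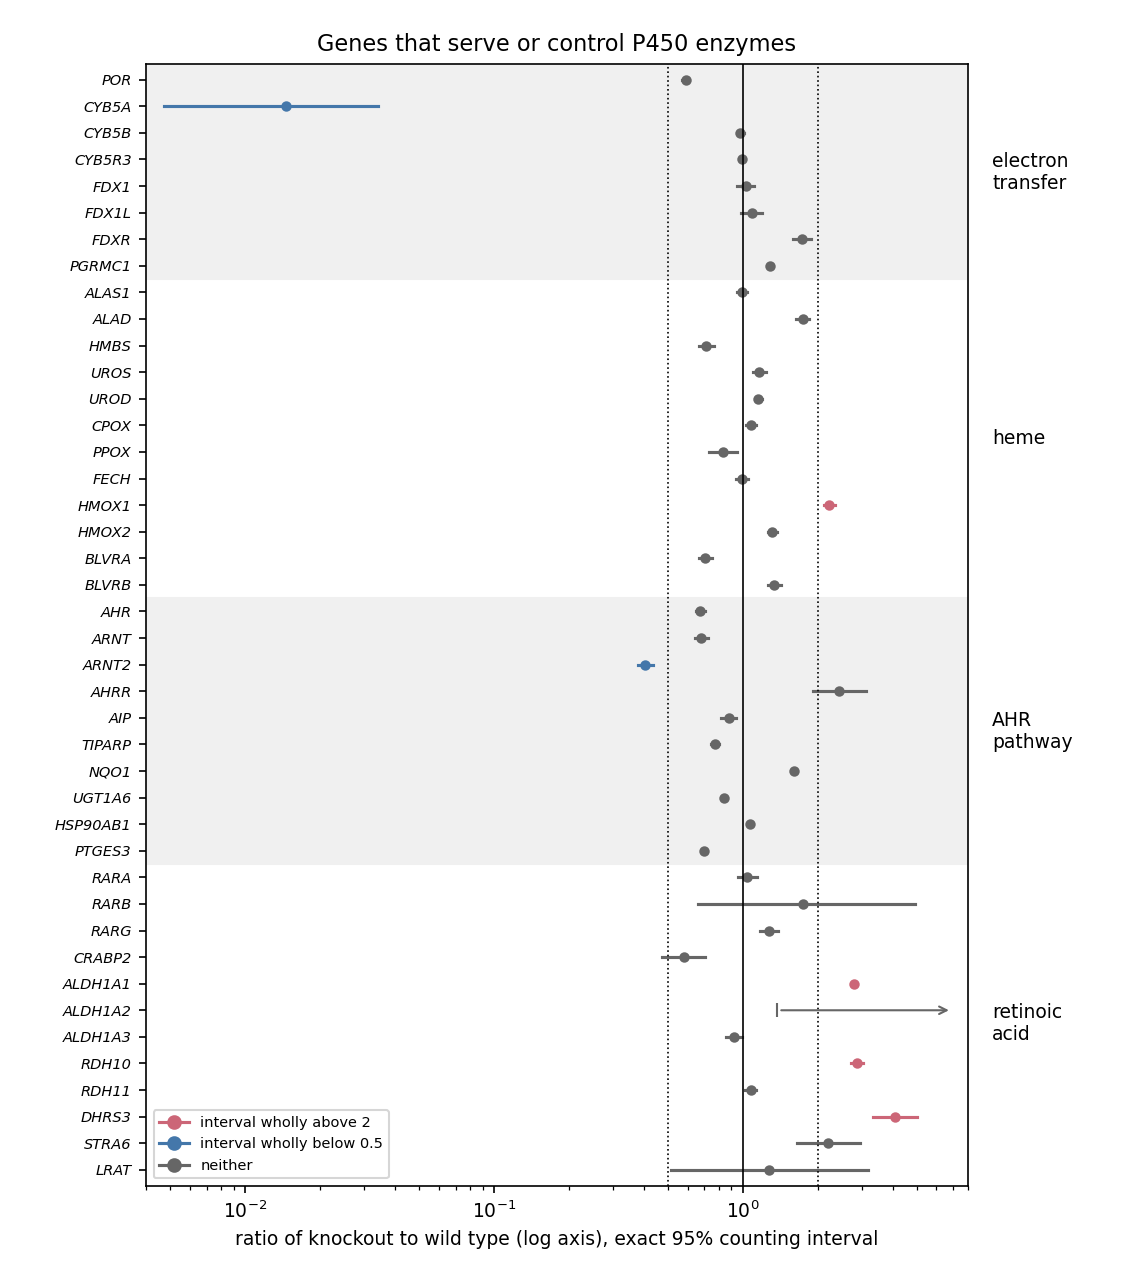
Ratio of knockout to wild type (horizontal, log axis) with its exact 95% counting interval for genes of electron transfer, heme, the AHR pathway and retinoic acid handling, with dotted lines at 2-fold. CYB5A stands far to the left at 0.0146, and ALDH1A1, RDH10 and DHRS3 lie right of the 2-fold line, while the arrow of ALDH1A2, which had no wild-type fragment, starts at the lower end of its interval.

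Genes that act before and after the fatty acid P450s gave 2 higher of 7 measured and 0 lower. ALOX5, the lipoxygenase that starts leukotriene synthesis, had 15 and 499 fragments, RPKM 0.0683 and 2.80, and a ratio of 38.8 (23.3 to 69.9). EPHX2, the soluble hydrolase that removes the epoxides made by CYP2J2 and CYP2C enzymes, had 34 and 117, a ratio of 4.01 (2.72 to 6.07). EPHX1, the microsomal hydrolase, had 5344 and 7840, a ratio of 1.71 (1.65 to 1.77). The lipoxygenase gene ALOX12 had 132 and 197, a ratio of 1.74 (1.39 to 2.19). PTGS2, the inducible cyclooxygenase, had 47 and 15, a ratio of 0.372 (0.193 to 0.678) that was below 1 but not wholly beyond 1.5-fold. PLA2G4A, of the same list, had 27 and 20, a ratio of 0.864 (0.459 to 1.60) whose interval includes 1. ALOX5 and CYP4F3, which inactivates leukotriene B4, were thus both higher, but these genes alone do not describe the leukotriene pathway. P450s whose symbol is not CYP are outside the count of 55. PTGIS, the prostacyclin synthase, had 177 and 26 fragments, a ratio of 0.171 (0.109 to 0.260). TBXAS1, the thromboxane synthase on chromosome 7, had 1096 and 1273, a ratio of 1.35 (1.25 to 1.47), and 2.20 when divided by its neighbours.

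Markers of cells in which these P450s are known were read in the same libraries. Of 14 hepatocyte markers, 5 were measured and 2 were higher, the serum protein genes ALB at 0 and 17 fragments and TF at 7 and 32. Beyond 1.5-fold 2 were lower, APOH at 29 and 6 fragments, a ratio of 0.241 (0.0819 to 0.592), and SERPINA1, a ratio of 0.490 (0.473 to 0.507). Of the 14, 8 had no fragment in the wild-type library and 6 had none in the knockout library, and APOB, TTR, AHSG, FGA and G6PC had none in either. The summed hepatocyte level was 186 and 92.1 CPM, nearly all of it from SERPINA1 at 11219 and 4711 fragments. Of 11 leukocyte markers, 6 were measured and 2 were higher, CD14 at 7 and 38 fragments and the actin-bundling gene LCP1 at 3086 and 14404. The macrophage receptor gene CSF1R went the other way at 198 and 68 fragments, a ratio of 0.401 (0.300 to 0.530), lower beyond 1.5-fold. The summed leukocyte level was 93 and 319 CPM, and LCP1 and CD68 gave most of it. The pan-leukocyte marker PTPRC had 2 and 1 fragments, and the T cell marker CD3E had none in either library.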

How the data were processed

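RNA of 2 libraries, 1 per line, was analysed, each assigned to its line by its labels. Per the file headers, raw read counts and RPKM values per gene were deposited. The submitters' processing notes name hg19 as build and list TopHat2 2.0.6, Bowtie and HTSeq. Settings, annotation release and use of strand: not given in the sources used here. Every deposited count was even, so counts were divided by 2 to give fragments. The Y rows of 23 genes with rows on X and Y were dropped, which left 23375 genes. No p-value was computed.

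Libraries were scaled by TMM in edgeR 4.0.16 (R 4.3.3) on 16894 genes with at least 10 reads. Ratios carry exact conditional (Clopper-Pearson) 95% intervals from scipy 1.17.1, and log2 ratios used 0.5 added fragments. Genes at 0 were compared with a floor of 3 fragments. Neighbour ratios were divided by the median of the 50 nearest genes with at least 100 reads. The interval rule was tested on simulated counts that held counting error only, so that test does not cover other differences between libraries. Alternatives, given in the closing section, included total count, upper quartile and DESeq2 1.42.0 scaling, RPKM ratios, other depth minimums, undivided counts, a 99% interval and the fold alone.

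The members, the role and partner lists and the tests were chosen with earlier results of these data known. Members with at least 20 fragments in 1 library are given singly, others in counts and small values. Partner genes named are those beyond 2-fold and the highest of each list by wild-type RPKM. POR, CYB5B, FDX1, FDXR, ALAS1, AHR, ARNT, AHRR, VDR, PAX8, CA9, CDH6, CSF1R, PTPRC, CD3E and PTGS2 were added for their role after their values were seen, as were the low-count members named. EPAS1, CA12, PAX2, KRT18 and PLA2G4A were also added after their values were seen. Some genes that these rules take are left out of the text. Promoter windows of 250 bases came from RefSeq on GRCh38.p14, matched by symbol for 39 of 55 members, and shared 50-base windows from GENCODE 29 transcripts.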

Additional observations from a re-analysis of the deposited data

How the results depend on the processing

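With the fold taken without an interval, 21 members were higher and 4 were lower beyond 2-fold. Divided by the 50 nearest expressed genes, 1 member was lower, CYP2S1, and CYP1B1 was not counted. Divided in the same way, CYP51A1 (1.2) and CYP3A4 (1.26), neither beyond 2-fold, turned above 1. Among the partner genes, RXRA (1.82) and ARNT2 (0.476) lost their calls, and TBXAS1 (2.20) gained one as higher. The number of partner genes higher thus stayed at 10, though not with the same genes, and the number lower went from 4 to 3. Under the other alternatives 8 to 15 members were higher. CYP27A1 lost its call with a 99% interval, and CYP2C8 was among the members that gained one with undivided counts, where 15 were higher. Over all alternatives for single members, 123 of 134 values stayed within their interval, 11 moved and 0 reversed beyond a called change. Part of the 123 could not move, because undivided counts leave each ratio unchanged and the CYP2S1 ratio stays at 0. The values also include the folds of CYP2A6 and CYP2S1 against the floor, and that of CYP2S1 was given no limit it could pass. A reversal was looked for only in called members, so CYP51A1 and CYP3A4 were not counted as reversed. No paired analysis was possible because each line has 1 library. Depth limits the members under 20 fragments, whose ratios rest on few reads.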

Other observations

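Rows with a CYP symbol that the naming rule leaves out numbered 10 and were mostly pseudogenes. CYP4F35P, a CYP4F pseudogene on another chromosome than the CYP4F cluster, had 64 wild-type and 28 knockout fragments, a ratio of 0.510 (0.315 to 0.807), opposite to the CYP4F genes. CYP2D7P1 had 35 and 37 fragments, more than the 9 and 17 of the gene CYP2D6. CYP2B7P1 had 0 and 10, in the same interval as CYP2A6 with 0 and 11. CYP2G1P had 0 and 4 and CYP4F24P had 0 and 3. These rows were chosen after their values were seen.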
